A study of Rattus norvegicus with 6 samples.

Results

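The 10 early response genes described here are the zinc finger genes Egr1, Egr2 and Egr3, the orphan nuclear receptor genes Nr4a1, Nr4a2 and Nr4a3, and Ier2, Ier3, Btg2 and Arc. They are immediate early genes outside the AP-1, DUSP and KLF families, matched by symbol, and all 10 were found among the 22608 genes of the deposited expression table. The set was selected on earlier results from the same BHB and control libraries, in which immediate early genes as a group had been higher with BHB. Differences between BHB and control are therefore given for these genes as a description and not as independent evidence.

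The libraries were made from poly(A) RNA of primary rat brain astrocytes, 3 from cultures treated with β-hydroxybutyrate (BHB), a ketone body made by the liver in fasting, and 3 from control cultures. The column names of the table give the BHB dose as 2 mM. Both groups were labelled as the same cell type from brain and differed by label only in treatment. The treatment time and the rats' strain and age are unknown from the labels. The labels also do not say whether libraries of the same group derive from distinct animals or cultures, so p-values here reflect the scatter of these samples alone, and that scatter may be technical. The study asks what BHB does to astrocyte gene expression and glutamate uptake.

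Immediate early genes are transcribed within minutes of a stimulus without need of new protein. Growth factors and stress act through MAP kinases on serum response factor and its ELK partners at serum response elements, while cAMP and calcium act through CREB at cAMP response elements (CREs). Their mRNAs are short-lived, and in astrocytes the genes respond to growth factors, transmitters and handling of the culture. EGR and NR4A proteins are themselves transcription factors that control later genes, while Ier2, Ier3, Btg2 and Arc act in other ways.

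Expression was deposited as FPKM, fragments normalised to transcript length and to library size, so levels can be compared between genes per length. The sums of FPKM ran from 361730 to 367448 in BHB libraries and from 354565 to 365566 in control libraries. Pairwise correlations of log2(FPKM + 1) between libraries were 0.990 to 0.993. The number of fragments per library is not known from the table. Astrocyte markers covered a wide range of levels. The highest were Vim at 3545 and Fabp7 at 2304 FPKM with BHB, against 3570 and 2319 FPKM in controls. The lowest was Slc1a2, at 6.06 FPKM with BHB and 5.83 FPKM in controls. Of the 12 astrocyte markers 1 passed, the glutamate transporter gene Slc1a3, which rose (455.2 FPKM with BHB and 202.7 FPKM in controls, limma adjusted p = 1.64e-05).

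All BHB libraries lay above all controls in 7 of the 10 genes: Egr1, Egr2, Egr3, Nr4a1, Ier2, Ier3 and Btg2. Over the whole table this order held for 998 of 22608 genes, of which 4939 were at 0 in every library. A minimum of 1 FPKM in 3 or more libraries left 12373 genes for testing. Egr2, Egr3 and Arc were below that minimum, and Nr4a1 reached it only through its BHB libraries. A gene that enters in this way has its order and direction fixed by the minimum. Nr4a1 is still included in the counts that follow. Of the 7 members tested 5 had this order, which held for 6.43% of all tested genes. The reverse order held for 0 of the members and for 4.45% of all tested genes. Of the 7, 6 were above 0 in log2 fold change, as were 51.5% of all tested genes. Their median was 0.19 on the log2(FPKM + 1) scale, which understates the change of genes at low levels, and the median of all tested genes was 0.00 (0.00289). In the limma fit across all genes none of the 7 reached an adjusted p under 0.05, a level reached by 0.0566% of all tested genes. The lowest adjusted p was 0.733, for Nr4a1. Unadjusted limma p-values were under 0.05 in 5 of the 7, all higher with BHB. Among all tested genes 3.45% were higher and 2.14% lower at that level. Since this contrast was known when the genes were chosen, nothing further is read from these counts.

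**Figure D1:**
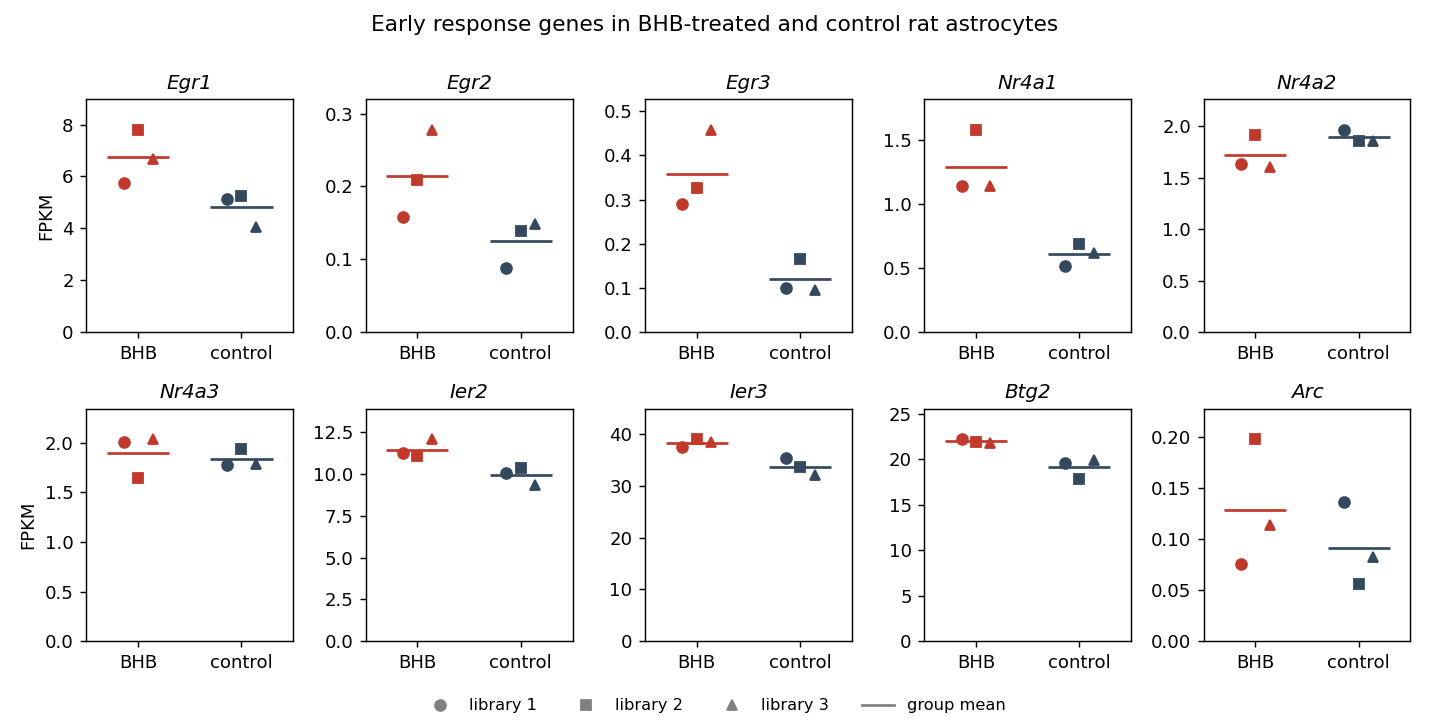
FPKM (vertical axes, each from 0) of the 10 early response genes in 3 BHB and 3 control libraries, with a symbol for each library number and a line at each group mean. The groups are separate in 7 panels and overlap for Nr4a2, Nr4a3 and Arc.

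Egr1, the zinc finger factor that is the best known growth factor response gene of the family, was the only EGR gene of substantial level. It stood at 5.75, 7.80 and 6.66 FPKM in BHB libraries 1 to 3, against 5.11, 5.23 and 4.07 FPKM in controls 1 to 3. The groups did not overlap, but BHB 1 lay close to the upper 2 controls. The means were 6.74 ± 1.02 FPKM with BHB and 4.80 ± 0.640 FPKM in controls (SD, n = 3 each), a ratio of 1.40. The log2 fold change on the log2(FPKM + 1) scale was 0.41 (SE 0.117, 95% interval 0.14 to 0.68).

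Egr3, which is induced with Egr1 by neuronal activity and growth factors and shares its DNA site, had the largest ratio of the 10 genes at a far lower level. Its values were 0.290, 0.327 and 0.458 FPKM with BHB, against 0.101, 0.166 and 0.0962 FPKM in controls. Every BHB library was above every control, and the ratio of means was 2.97. Egr2, also called Krox20 and known for its role in Schwann cell myelination, had 0.158, 0.208 and 0.278 FPKM with BHB, against 0.0874, 0.139 and 0.149 FPKM in controls, with a ratio of means of 1.72. The lowest BHB library was just above the highest control. At such levels few fragments stand behind a value and the scale compresses differences. In a fit without the minimum the log2 fold change was 0.28 for Egr3 (SE 0.0547) and 0.11 for Egr2 (SE 0.0454), and with a pseudocount of 0.1 in place of 1 it was 1.05 for Egr3 and 0.48 for Egr2.

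Egr1 made up most of the summed FPKM of the 3 EGR genes in both groups, at 92.1 ± 1.85% with BHB and 95.1 ± 1.18% in controls (SD, n = 3 each). The share of Egr3 was 4.93 ± 1.16% with BHB and 2.37 ± 0.560% in controls. The sum was 7.31 ± 1.07 FPKM with BHB and 5.05 ± 0.648 FPKM in controls. Egr4, the remaining family member, was named after its values were seen and was listed at 0.0312 FPKM in BHB 1 and at 0 in the other 5 libraries.

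The promoters of Egr1 and Egr2 are shown because they carry the serum response elements for which these genes are known. Each window is 300 bases of the rat GRCr8 assembly from RefSeq, running from 250 bases before to 50 bases after a transcript start, and was available for 6 of the 10 genes. The Egr1 window is chr18:26736828-26737127 on the plus strand, and the Egr2 window is chr20:21054392-21054691 on the minus strand. Capitals mark serum response elements (CC, then 6 bases that are A or T, then GG) and CRE cores (TGACG on either strand, read CGTCA on the other).
Egr1: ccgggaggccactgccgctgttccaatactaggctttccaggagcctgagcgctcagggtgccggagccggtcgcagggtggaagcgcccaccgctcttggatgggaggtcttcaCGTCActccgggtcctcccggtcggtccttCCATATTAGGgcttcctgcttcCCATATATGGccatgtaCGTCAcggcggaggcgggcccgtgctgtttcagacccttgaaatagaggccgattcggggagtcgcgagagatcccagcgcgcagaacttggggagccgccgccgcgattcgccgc
Egr2: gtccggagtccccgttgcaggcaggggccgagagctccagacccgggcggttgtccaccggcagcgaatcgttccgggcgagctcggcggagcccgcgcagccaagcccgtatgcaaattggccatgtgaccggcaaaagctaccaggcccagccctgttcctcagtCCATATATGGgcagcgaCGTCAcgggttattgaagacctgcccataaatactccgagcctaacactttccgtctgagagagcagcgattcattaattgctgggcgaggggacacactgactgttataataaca

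Egr1 had 2 serum response elements, at bases -105 to -96 and -83 to -74 before the start, and 2 CRE cores, at -135 to -131 and -66 to -62. Egr2 had a single serum response element and a single core, at -83 to -74 and -66 to -62, the same distances as the nearer pair in Egr1. Serum response elements occurred in 2 of the 6 windows of these genes and in 1.64% of all 33469 windows of the table. These matches describe letters only and do not show that a factor was bound in the astrocytes.

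Among the NR4A genes, only Nr4a1 had groups that did not overlap. Nr4a1 encodes Nur77, an orphan nuclear receptor induced by growth factors, cAMP and calcium. It stood at 1.14, 1.58 and 1.14 FPKM with BHB, against 0.518, 0.691 and 0.620 FPKM in controls. All BHB values were at least 1.14 FPKM and all controls at most 0.691 FPKM, and BHB 2 was the highest library. The means were 1.29 ± 0.255 FPKM with BHB and 0.610 ± 0.0871 FPKM in controls (SD, n = 3 each), a ratio of 2.11. The log2 fold change was 0.50 (SE 0.106, 95% interval 0.26 to 0.75), and 0.96 with a pseudocount of 0.1.

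Nr4a2, which encodes Nurr1, a receptor needed for midbrain dopamine neurons, had 1.64, 1.92 and 1.60 FPKM with BHB, against 1.96, 1.86 and 1.85 FPKM in controls. The groups overlapped through BHB 2, and the log2 fold change was -0.09 (95% interval -0.28 to 0.10). Nr4a3, which encodes NOR-1, had 2.01, 1.65 and 2.04 FPKM with BHB, against 1.78, 1.94 and 1.79 FPKM in controls. Here BHB 2 was the lowest of all libraries while the other two BHB libraries were the highest, and the log2 fold change was 0.03 (95% interval -0.17 to 0.23). Without BHB 2 the groups did not overlap in either gene, with Nr4a2 lower and Nr4a3 higher in the BHB libraries that remain. BHB 2 is the library through which both genes overlapped, so leaving it out separates the groups by itself. The share of all genes with separate groups in that smaller comparison was not counted, and nothing is read from it.

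The make-up of the family can be read as shares. Nr4a1 held 26.1 ± 3.98% of the summed FPKM of the 3 genes with BHB and 14.0 ± 1.69% in controls (SD, n = 3 each). Nr4a2 held 35.0 ± 2.02% with BHB and 43.6 ± 2.34% in controls. The share of Nr4a3 was 38.9 ± 5.98% with BHB and 42.3 ± 0.764% in controls. The sum was 4.91 ± 0.210 FPKM with BHB and 4.34 ± 0.129 FPKM in controls. Shares are parts of a whole, so a higher Nr4a1 by itself lowers those of Nr4a2 and Nr4a3, whose FPKM overlapped between the groups. Because Nr4a1 entered through the choice of genes, these shares are given without a test.

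**Figure D2:**
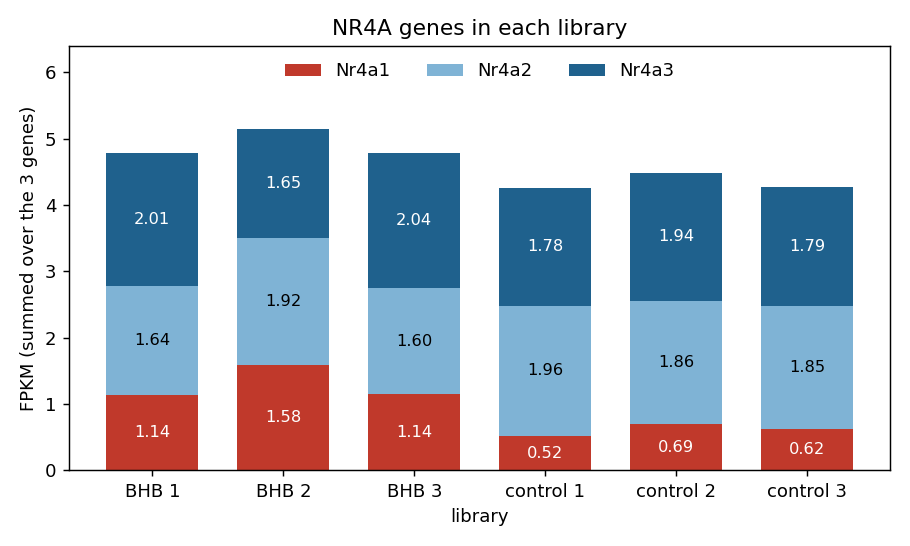
Stacked FPKM of Nr4a1 (bottom), Nr4a2 (middle) and Nr4a3 (top) in each BHB and control library, with each value written in its bar. The Nr4a1 segment is 1.14 to 1.58 FPKM in BHB libraries and 0.52 to 0.69 FPKM in controls, while the other segments overlap between the groups.

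The windows of Nr4a1 and Nr4a2 are shown as the NR4A windows available, and the letters were not tested against the levels. The Nr4a1 window is chr7:134259888-134260187 on the plus strand, and the Nr4a2 window is chr3:62104838-62105137 on the minus strand (GRCr8, RefSeq). Capitals again mark CRE cores.
Nr4a1: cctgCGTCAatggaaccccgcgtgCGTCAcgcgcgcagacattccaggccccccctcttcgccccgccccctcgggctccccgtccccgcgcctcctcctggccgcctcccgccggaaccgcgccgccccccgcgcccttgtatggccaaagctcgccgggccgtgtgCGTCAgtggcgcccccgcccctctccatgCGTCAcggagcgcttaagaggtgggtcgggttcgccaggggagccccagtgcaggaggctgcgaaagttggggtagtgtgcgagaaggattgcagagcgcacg
Nr4a2: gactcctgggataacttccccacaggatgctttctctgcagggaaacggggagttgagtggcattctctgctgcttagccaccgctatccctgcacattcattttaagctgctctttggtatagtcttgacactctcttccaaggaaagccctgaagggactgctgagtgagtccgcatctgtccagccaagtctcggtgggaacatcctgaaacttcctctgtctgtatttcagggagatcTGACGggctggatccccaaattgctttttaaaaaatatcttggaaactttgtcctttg

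Nr4a1 had 4 cores, at -246 to -242, -226 to -222, -82 to -78 and -53 to -49, and Nr4a2 had 1, at -8 to -4. At least 1 core was found in all 6 windows and in 21.2% of all windows. Nr4a1 also held the single EGR site (GCGGGGGCG or GCGTGGGCG on either strand) among the 6 windows, at -73 to -65, a motif present in 3.20% of all windows. G and C made up 72.3% of the Nr4a1 window and 48.7% of that of Nr4a2. Nothing about the levels is read from these counts. For Nr4a1, Nr4a2 and Egr2 the RefSeq gene record begins upstream of the start shown, so each has other listed starts, and which start the astrocytes used is not known from the table.

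Ier3, Btg2 and Ier2 were the most abundant of the 10 genes, with smaller ratios. Ier3, also called IEX-1, encodes a short-lived protein that acts on cell survival and ERK signalling. It stood at 37.5, 39.0 and 38.5 FPKM with BHB, against 35.4, 33.6 and 32.1 FPKM in controls. The groups did not overlap, and the means were 38.3 ± 0.785 FPKM with BHB and 33.7 ± 1.63 FPKM in controls (SD, n = 3 each), a ratio of 1.14. The log2 fold change was 0.18 (SE 0.0501, 95% interval 0.07 to 0.30).

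Btg2, an antiproliferative protein that brings the CCR4-NOT deadenylase to mRNAs, stood at 22.2, 21.9 and 21.8 FPKM with BHB, against 19.6, 17.8 and 19.9 FPKM in controls. The BHB libraries were nearly equal, with a coefficient of variation of 0.942%, against 5.89% in controls. The log2 fold change was 0.19 (SE 0.0557, 95% interval 0.07 to 0.32). Ier2, a nuclear protein encoded by a gene with no introns in mammals, stood at 11.3, 11.1 and 12.1 FPKM with BHB, against 10.1, 10.4 and 9.36 FPKM in controls. The lowest BHB library was above the highest control, with a log2 fold change of 0.19 (SE 0.0636, 95% interval 0.04 to 0.33).

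Ier2 and Btg2 were the members whose windows held a full CRE (TGACGTCA), found in 1.83% of all windows, and 40 bases around it are shown with that site in capitals. The Ier2 stretch is chr19:40399291-40399330 on the plus strand and the Btg2 stretch is chr13:48087868-48087907 on the minus strand (GRCr8, RefSeq).
Ier2: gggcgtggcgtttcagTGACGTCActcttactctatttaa
Btg2: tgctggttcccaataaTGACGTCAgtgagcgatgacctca

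The site lay at -66 to -59 in Ier2 and at -201 to -194 in Btg2. Each full site is read here as 2 overlapping cores. The letters TATAAA were in none of the 6 windows and in 14.2% of all windows.

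**Figure D3:**
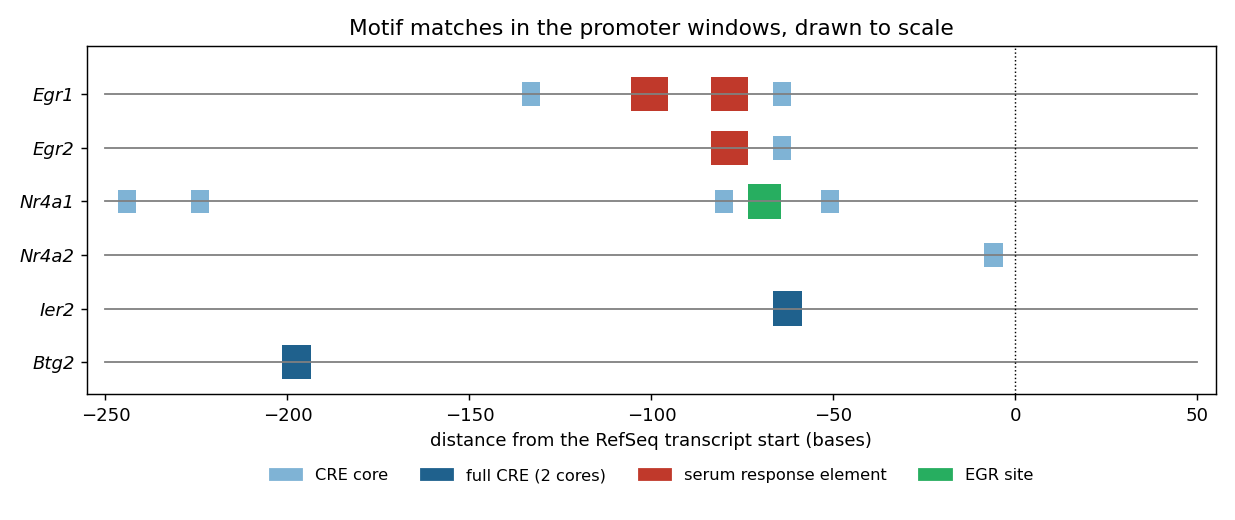
Positions of motif matches in the 6 promoter windows, by distance from the RefSeq transcript start in bases, to scale. Egr1 and Egr2 share the place of a serum response element and a core.

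Arc encodes a cytoskeleton-associated protein of neurons that takes up AMPA receptors from synapses, and its mean was the lowest of the 10 genes. Its values were 0.0756, 0.198 and 0.113 FPKM with BHB, against 0.136, 0.0564 and 0.0821 FPKM in controls. The groups overlapped, with coefficients of variation of 48.6% with BHB and 44.4% in controls. Without the minimum its log2 fold change was 0.05 (95% interval -0.07 to 0.17).

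By mean FPKM the order with BHB was Ier3, Btg2, Ier2, Egr1, Nr4a3, Nr4a2, Nr4a1, Egr3, Egr2 and Arc. In controls Nr4a2 was ahead of Nr4a3 and Egr2 ahead of Egr3, and the order was otherwise the same. With BHB the ranges over libraries overlapped between neighbours only for Nr4a3 with Nr4a2 and for Egr2 with Arc. In controls they overlapped for Nr4a2 with Nr4a3, Egr2 with Egr3, and Egr3 with Arc. The levels span a wide range: among the 17669 genes above 0 in at least 1 library, Ier3 lay at percentile 89.2 with BHB and 87.3 in controls, and Arc at 16.7 with BHB and 14.7 in controls. Egr1 lay at percentile 55.4 with BHB and 49.3 in controls. In 4 of the 10 genes (Egr1, Ier2, Ier3 and Btg2) the deposited values had at most 6 decimals and RefSeq lists 1 transcript. The other 6 had more decimals and 2 to 7 listed transcripts, and the way transcript values were combined per gene is not known from the labels.

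The pattern of Egr1 over the 6 libraries was compared with that of 8868 genes of at least 5 FPKM by Pearson correlation of log2(FPKM + 1), as a description. Among the closest were LOC100360828 (0.990), Pragmin (0.989), Eml2 (0.984) and Rnf40 (0.983). Among the other members above 5 FPKM, Ier3 was at place 117 (0.928), Ier2 at 527 (0.815) and Btg2 at 1641 (0.596). Below 5 FPKM the correlation was 0.885 for Nr4a1 and 0.822 for Egr3, but -0.21 for Nr4a2 and -0.10 for Nr4a3. All these values come from the same 6 libraries and include the difference between the groups.

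Other early response genes, from lists written with earlier results of these data known, were looked at beside the 10. Of 16 AP-1, DUSP and KLF genes 13 were tested, and the log2 fold changes of all 13 were above 0 (median 0.21), against 51.5% of all tested genes. Fos and Fosb, which encode AP-1 subunits, rose (limma adjusted p = 0.0402 for Fos and 0.00258 for Fosb). The call of Fos was lost when any single library was left out. Fos stood at 13.6, 14.5 and 13.8 FPKM with BHB, against 9.27, 9.66 and 8.36 FPKM in controls. Fosb stood at 2.02, 2.39 and 2.31 FPKM with BHB, against 0.179, 0.315 and 0.333 FPKM in controls. It reached the minimum only through its BHB libraries, so a difference was built into its being tested. Of 39 tested genes in a list of 45 further early genes, 30 lay above 0, with a median of 0.09. None of them passed in limma, while at an unadjusted p under 0.05 there were 11 higher and 1 lower, against 3.45% and 2.14% of all tested genes. Those with the smallest p were Phlda1, a death-associated PH domain gene (log2 fold change 0.32, limma adjusted p = 0.586), the EGF receptor ligand gene Hbegf (0.25, 0.632) and Trib1, a pseudokinase that acts in protein degradation (0.37, 0.684). Ier5, the third IER gene by name and chosen after its values were seen, stood at 21.5, 22.8 and 19.3 FPKM with BHB, against 19.9, 19.6 and 20.2 FPKM in controls, with overlapping groups.

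Transcription factors and kinases that switch on early genes were counted at the mRNA level. Of 17 tested transcription factors and coactivators, 8 had log2 fold changes above 0 and 9 below (median -0.01), and none passed in limma or had an unadjusted p under 0.05. The smallest p was that of Mef2d, a calcium-responsive factor, at 5.77 FPKM with BHB and 4.93 FPKM in controls (limma adjusted p = 0.890). Srf, which encodes serum response factor and was named after its values were seen, stood at 11.7, 12.9 and 15.1 FPKM with BHB, against 13.2, 14.4 and 13.7 FPKM in controls. Of 16 tested upstream kinases 12 lay above 0, against 51.5% of all tested genes, with a median of 0.04. None passed, and 2 had an unadjusted p under 0.05 (5.59% of all tested genes), Rps6ka1, which encodes a ribosomal S6 kinase downstream of ERK (0.26), and Map2k1, which encodes the ERK kinase MEK1 (0.14), both at a limma adjusted p of 0.881. Activity of these proteins cannot be read from mRNA.

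Partners and targets of EGR proteins, known mostly from other cell types, lay on both sides of 0. Of 14 tested, 9 were above 0, against 51.5% of all tested genes, with a median of 0.04, and none passed in limma. At an unadjusted p under 0.05 there were 2 higher and 1 lower, against 3.45% and 2.14% of all tested genes. Among them, Icam1, an adhesion molecule gene, had a log2 fold change of 0.16 and Pdgfa, a growth factor gene, one of -0.26, at a limma adjusted p of 0.881 each. Nab2, a corepressor that EGR proteins induce, was named after its values were seen and stood at 7.59 ± 0.255 FPKM with BHB and 7.19 ± 0.565 FPKM in controls (SD, n = 3 each). The retinoid X receptor genes Rxra and Rxrb, whose proteins partner Nur77 and Nurr1, had log2 fold changes of 0.11 and 0.10. They did not pass (limma adjusted p = 0.895 and 0.899).

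Of 11 tested genes of the BTG and TOB family and the CCR4-NOT complex, with which Btg2 acts, 3 lay above 0 and 8 below. Above 0 were 51.5% of all tested genes. The median of the list was -0.06, and none of it passed or had an unadjusted p under 0.05 in limma. The smallest p were those of Btg3 (0.13), Tob1 (-0.07) and Cnot2 (-0.06). Of 10 tested genes that act on the turnover of short-lived mRNAs, 5 lay above 0, with a median of 0.00 (4.7e-04), and none passed in limma. The decay factor gene Khsrp, at 23.9 FPKM with BHB and 26.6 FPKM in controls, was the single one with an unadjusted p under 0.05 (log2 fold change -0.14). At that level 2.14% of all tested genes were lower with BHB.

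**Figure D4:**
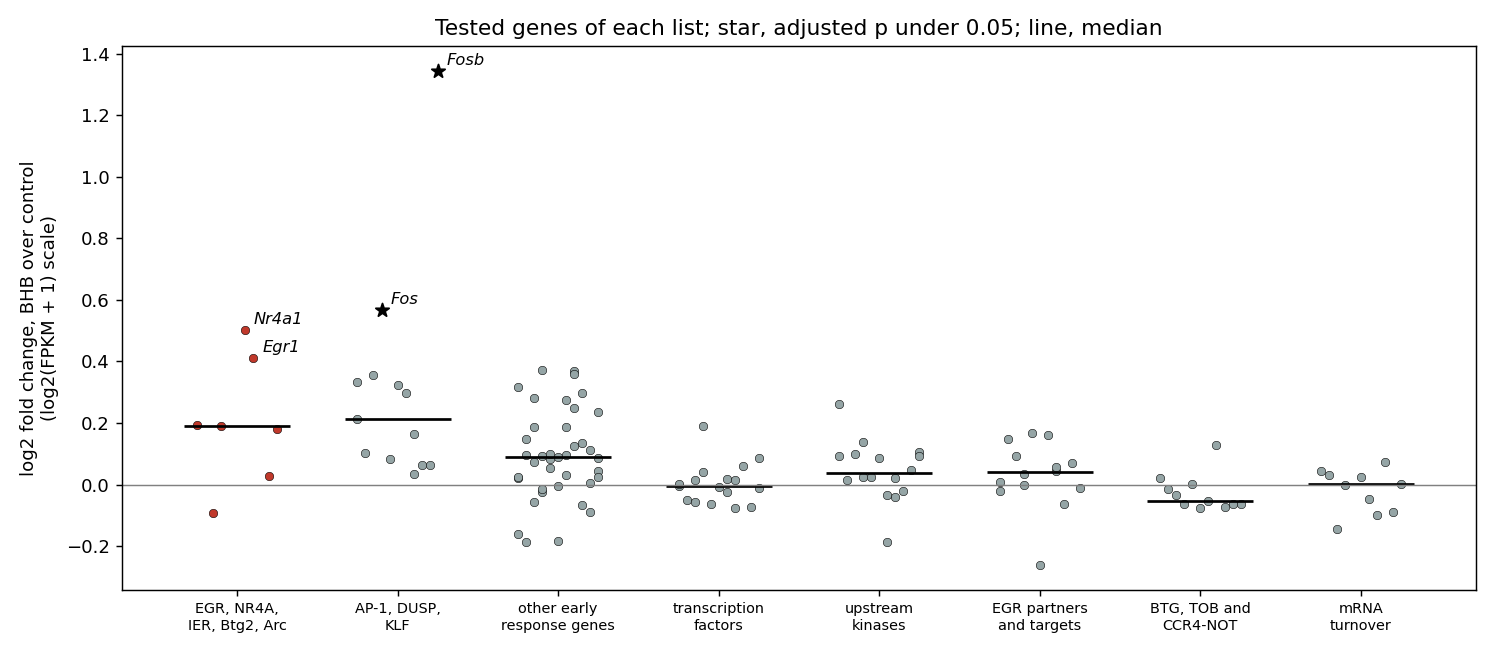
Log2 fold change (BHB over control, log2(FPKM + 1) scale) of each tested gene, by list, with a line at the median and a star where the adjusted p is under 0.05. The 10 genes, of which 7 were tested (red), and the AP-1, DUSP and KLF genes have medians of 0.19 and 0.21, and only Fos and Fosb carry stars. The star of Fos is lost without the minimum, with the replicate block, without the trend and when any library is left out.

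EGR, NR4A and Arc genes are also known as activity genes of neurons, and several are induced by cell stress, so these markers are given beside the results. In bulk RNA, fewer cells of a type and less RNA per cell cannot be told apart. Of 13 neuron markers 8 were tested, 4 above and 4 below 0, and their summed level was 118.3 to 122.1 FPKM with BHB and 119.7 to 121.4 FPKM in controls. The highest was Stmn2, at 54.1 FPKM with BHB and 54.8 FPKM in controls, while the defining nuclear marker Rbfox3 was at 0.454 FPKM with BHB and 0.392 FPKM in controls. Microglia markers summed to 49.1 to 51.6 FPKM with BHB and 48.1 to 53.3 FPKM in controls, with C1qb highest. Oligodendrocyte lineage markers summed to 95.1 to 99.1 FPKM with BHB and 92.5 to 97.9 FPKM in controls. The overlap of these sums rests on Mog in control 1, at 5.47 FPKM. In every other library Mog was at most 0.529 FPKM. Without Mog the sum of the list was higher in every BHB library than in every control, although the groups overlapped for each single gene of the list. Endothelial markers, with Cldn5 at 0 in all libraries, summed to 3.02 to 4.12 FPKM with BHB and 3.31 to 3.69 FPKM in controls. Ependymal markers, with Tmem212 at 0, summed to 31.5 to 34.1 FPKM with BHB and 34.4 to 37.5 FPKM in controls, so these sums were lower with BHB without overlap. Most of the sum was Foxj1, at 31.1 FPKM with BHB and 33.8 FPKM in controls. The groups overlapped for Foxj1 and for every other gene of the list, and the mean of Ccdc153 was higher with BHB (0.212 and 0.0718 FPKM). Fibroblast and mural markers summed to 4624 to 5005 FPKM with BHB and 4469 to 4844 FPKM in controls. Most of this sum was Tagln (3104 FPKM with BHB and 3030 FPKM in controls) and Acta2 (1334 and 1285 FPKM). Col1a2 was at 266.2 FPKM with BHB and 270.9 FPKM in controls. In contrast, Lum was at 0.1125 FPKM with BHB and 0.1185 FPKM in controls. Dcn was at 0 in all libraries except control 3, where it was at 0.0324 FPKM. Heat shock and stress genes had 5 of 6 tested above 0, against 51.5% of all tested genes, and none had an unadjusted p under 0.05 in limma. They summed to 350.2 to 399.2 FPKM with BHB and 344.8 to 369.0 FPKM in controls. The part of other cells or of stress in the early gene values was not tested.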

How the data were processed

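FPKM values deposited by the authors cover 22608 gene symbols in 6 libraries of rat primary astrocytes, 3 treated with BHB and 3 controls. RNA was isolated with the RNeasy Micro Kit, selected on oligo-dT beads and converted with a TruSeq kit, per the labels' protocols. Tools named without roles or settings in the submitters' processing notes are bcl2fastq 2.0, HISAT2, StringTie and DESeq2, with the build rn6. The sources used here do not give the annotation or the strand setting. Depth is unknown, so counts behind low values cannot be given.

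Columns were matched to samples by name. Values were transformed as log2(FPKM + 1), and the 12373 genes that reached 1 FPKM in 3 or more libraries were fitted with limma 3.58.1 in R 4.3.3 (eBayes with intensity trend, two-sided, Benjamini-Hochberg over all tested genes, threshold 0.05). The scale understates changes of genes near or under 1 FPKM. The fit was tested on simulated data. Ratios are of mean FPKM. Members, lists and tests were chosen with earlier results of these data known. Beyond the 10 genes, those passing and up to 3 with the smallest p per list were named, plus the most abundant cell type marker. Some genes that this rule names are not reported here. Promoters come from a RefSeq table of GRCr8, whose coordinates are not those of rn6, and were searched on both strands. Alternatives were other pseudocounts, filters, scalings, no trend, a replicate block and leaving out each library.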

Additional observations from a re-analysis of the deposited data

How the results depend on the processing

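The same 7 genes (Egr1, Egr2, Egr3, Nr4a1, Ier2, Ier3 and Btg2) had all BHB libraries above all controls after scaling to equal sums and after quantile normalization. The share of all genes with this order was not counted after either step. Leaving out a library cannot make separate groups overlap, so those runs could only keep or raise this count. Without BHB 2 Nr4a3 joined the 7 genes, which gave 8, and Nr4a2 was lower without overlap. The count thus ran from 7 to 8 over the left-out libraries, and the share of all genes in those runs was not counted. None of the members passed in limma under any alternative run, with a lowest adjusted p of 0.611 (Nr4a1 without control 2). The log2 fold change of Egr1 ran from 0.32 (without BHB 2) to 0.51 (without BHB 1), and that of Nr4a1 from 0.41 to 0.55 over left-out libraries and to 0.68 and 0.96 with pseudocounts of 0.5 and 0.1. That of Nr4a3 turned to -0.00025 without BHB 1 and -0.0062 without BHB 3. Over all tested genes 7 passed, 4 without the eBayes trend and 5 to 10 when a library was left out; the cause was not tested. In the lists of early genes, regulators and partners, cell type and stress markers not counted, 2 genes passed, Fos and Fosb, and 1 with no filter (Fosb), without the trend (Fosb), with at least 1 FPKM in all 6 libraries (Fos) and without any single library (Fosb, 1 to 1 genes). Libraries of the same number did not deviate together in general (correlation -0.0899, 0.164 and -0.151 for numbers 1, 2 and 3). The numbers were therefore not taken as a pairing. Between libraries of different numbers the correlation ran from -0.122 to 0.203. It was 0.203 for BHB 1 with control 3 and 0.186 for BHB 3 with control 1. A pairing across numbers was not fitted, and the labels give none. With the replicate block 2 genes passed over all tested genes and 1 of the lists (Fosb), with fewer residual degrees of freedom. Egr2, Egr3 and Arc are under the minimum, and the unknown depth limits what their values can show.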

Other observations

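Among the BHB libraries, number 2 was highest in 5 of the 10 genes (Egr1, Nr4a1, Nr4a2, Ier3 and Arc), number 3 in 4 (Egr2, Egr3, Nr4a3 and Ier2) and number 1 in 1 (Btg2). BHB 1 was the lowest of its group in 6 genes, among them all 3 EGR genes and Nr4a1. Among the controls, number 3 was lowest in 5 genes (Egr1, Egr3, Nr4a2, Ier2 and Ier3). With each gene centred on its group mean, the deviations of member pairs over the 6 libraries had a correlation above 0 in 24 of 45 pairs and a median of 0.0665.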
